A study of Mus musculus with 15 samples.

Results

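The 30 genes described here form the cholesterol synthesis pathway and its control by SREBP2. They were chosen by symbol, as the enzymes of sterol synthesis, the proteins that control SREBP2, and genes for the supply, transport and storage of sterols, and they are 30 of the 26301 genes with a count. RNA-seq was performed on mouse 3T3-L1 preadipocytes, an established line that turns into adipocytes when given insulin, dexamethasone and IBMX, in 15 libraries collected on day 2 of differentiation. The knockdown set compared control (sh-Empty) cells, which received a retrovirus without a short hairpin RNA, with JMJD1A-KD (sh-Jmjd1a) cells, whose retrovirus expressed a hairpin against Jmjd1a. In the rescue set, all cells carried the sh-Jmjd1a hairpin and received a further retrovirus for LacZ, for wild-type JMJD1A [JMJD1A(WT)] or for JMJD1A(H1122A), which is altered at the site that holds the catalytic iron. JMJD1A is a demethylase of histone H3K9 that needs iron, and both JMJD1A constructs carried changes that make them resistant to the hairpin. Each group had 3 libraries. The lines were stable populations made by infection and antibiotic selection, and the labels do not say whether replicates came from separate infections or cultures, so that p-values may measure only technical spread between these libraries.

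Animal cells make cholesterol from acetyl-CoA through the mevalonate pathway, which also yields the isoprenoid chains used for protein prenylation, dolichol and coenzyme Q, and then through squalene and a series of sterol intermediates. The transcription factor SREBP2 is held in the endoplasmic reticulum with its escort SCAP by INSIG proteins when sterols are plentiful. When sterols run low it moves to the Golgi, is cut by the site-1 and site-2 proteases and activates most genes of the pathway, INSIG1 included. Fat cells store a large share of their free cholesterol in the lipid droplet.

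Total counts were 11437058 to 25523148 per library, the highest in JMJD1A(WT) replicate 3, and the 30 members together took 0.216% to 0.272% of them. Hmgcs1, the cytosolic HMG-CoA synthase, was listed at 0 in all 15 libraries. The annotation of mm9 used for positions has no gene of that name, and all 5 pieces of 60 bases taken from its promoter matched the mm9 assembly only on 2 unplaced scaffolds, so the 0 says nothing of its expression. The other 29 members passed the filter on low counts in both sets. Levels below are CPM, that is counts scaled to the library total after TMM normalization within a set. Differences are log2 fold changes with the standard error (SE), tested by quasi-likelihood in edgeR, with p adjusted by Benjamini-Hochberg over all genes tested, and a gene was called at an adjusted p under 0.05. Kdm3a, the gene of JMJD1A, had 171, 173 and 185 CPM in sh-Empty cells and 129, 128 and 138 CPM in sh-Jmjd1a cells. It had 116 to 122 CPM with LacZ, 1638 to 1767 CPM with JMJD1A(WT) and 2102 to 2286 CPM with JMJD1A(H1122A), where transcripts of the construct and of the cell's own gene were counted together.

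Most of the sterol pathway was lower in JMJD1A-KD cells. Of the 29 tested members, 19 were lower in sh-Jmjd1a cells than in the control, beside 23.9% of all genes tested, and 2 were higher, beside 22.3% of all genes tested. The median log2 fold change was -0.33 over the 29 members and -0.0032 over all genes tested. Summed over 19 synthesis enzymes, with Hmgcs1 at 0 among them, the level was 825 to 860 CPM in the sh-Empty libraries and 538 to 551 CPM in the sh-Jmjd1a libraries. The decrease was shared along the synthesis steps, whereas the gene of SREBP2 itself differed by less than the spread between replicates.

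Control of SREBP2 was the role with the smallest share of calls. Of its 6 members 2 were lower, beside 23.9% of all genes tested, and none was higher, beside 22.3%. The share of lower members in this role was not far from that of all genes. Srebf2, which encodes SREBP2, had 121, 131 and 123 CPM in sh-Empty cells and 125, 123 and 126 CPM in sh-Jmjd1a cells. The groups overlapped, and the log2 fold change was -0.01 (SE 0.049, adjusted p = 0.943). Scap, the escort, had 89.3, 85.4 and 87.6 CPM against 94.6, 88.2 and 90.7 CPM and was not called. Mbtps1 and Mbtps2, the site-1 and site-2 proteases, had log2 fold changes of -0.07 and 0.07 and were not called either. Insig1, whose protein retains SREBP2 and whose gene SREBP2 activates, had 50.5, 48.2 and 51.0 CPM in sh-Empty cells and 32.4, 34.2 and 34.1 CPM in sh-Jmjd1a cells. Every sh-Jmjd1a library lay below every sh-Empty library, a log2 fold change of -0.57 (SE 0.071, adjusted p = 1.29e-07). Insig2, the second retention protein, fell less, from 49.9, 51.0 and 50.8 CPM to 41.6, 40.3 and 45.5 CPM, a log2 fold change of -0.25 (SE 0.070, adjusted p = 0.0039).

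All 7 tested members of the mevalonate and isoprenoid steps were lower in sh-Jmjd1a cells, beside 23.9% of all genes tested. Acat2, the thiolase that joins acetyl-CoA units at the entry of the pathway, had 146, 157 and 137 CPM in sh-Empty cells and 78.4, 74.2 and 64.4 CPM in sh-Jmjd1a cells. The groups were far apart, with a log2 fold change of -1.02 (SE 0.064, adjusted p = 7.87e-13). The kinases Mvk and Pmvk, which phosphorylate mevalonate, fell with log2 fold changes of -0.54 and -0.49. Mvd, the decarboxylase that makes isopentenyl diphosphate, had 17.96, 15.2 and 15.5 CPM against 10.9, 13.3 and 11.5 CPM. Although its sh-Empty replicate 1 was the highest, no libraries of the groups overlapped, and the log2 fold change was -0.44 (SE 0.12, adjusted p = 0.00394). Idi1, the isomerase of isopentenyl diphosphate, and Fdps, the farnesyl diphosphate synthase, fell with log2 fold changes of -0.59 and -0.53. Ggps1, which makes the geranylgeranyl diphosphate used to prenylate small GTPases, fell from 39.3 ± 0.739 to 23.9 ± 0.692 CPM (SD, n = 3), and its log2 fold change was -0.72 (SE 0.080, adjusted p = 1.8e-08).

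Among the 11 members of the squalene and sterol steps, 7 were lower in sh-Jmjd1a cells and 1 was higher, beside 23.9% and 22.3% of all genes tested. Cyp51, the lanosterol demethylase, had the largest decrease of any member, from 129.7, 138 and 118 CPM to 59.8, 62.9 and 61.9 CPM. Its sh-Jmjd1a libraries lay close together, and the log2 fold change was -1.06 (SE 0.060, adjusted p = 1.32e-14). Lss, the synthase that closes the sterol rings, had 53.9, 42.5 and 47.6 CPM in sh-Empty cells and 23.7, 23.8 and 24.8 CPM in sh-Jmjd1a cells. Its log2 fold change was -0.99 (SE 0.087, adjusted p = 1.55e-10). Dhcr7, which reduces 7-dehydrocholesterol to cholesterol, had 50.3, 54.7 and 51.0 CPM against 34.4, 35.1 and 27.5 CPM, a log2 fold change of -0.69 (SE 0.082, adjusted p = 6.2e-08). The C4-demethylation enzymes fell together, with log2 fold changes of -0.56 for Msmo1, -0.65 for Nsdhl and -0.20 for Hsd17b7, and the squalene epoxidase Sqle fell by 0.43. The call of Hsd17b7 was lost without sh-Empty replicate 1 (adjusted p = 0.0637) or sh-Jmjd1a replicate 1 (adjusted p = 0.0609), both from edgeR.

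Not every sterol enzyme followed. Sc5d, the lathosterol desaturase that acts just before Dhcr7, was higher in sh-Jmjd1a cells, at 25.9 ± 0.05 CPM against 19.8 ± 0.66 CPM (SD, n = 3), and its log2 fold change was 0.39 (SE 0.091, adjusted p = 0.00072). Fdft1, the squalene synthase at the branch to sterols, the sterol reductase Tm7sf2 and the sterol isomerase Ebp were not called, with log2 fold changes of -0.08, -0.15 and 0.18. In the supply, transport and storage group, 3 of 5 members were lower and 1 was higher, beside 23.9% and 22.3% of all genes tested. Stard4, a cytosolic carrier of sterols, had 27.1, 32.5 and 30.5 CPM in sh-Empty cells and 46.6, 38.6 and 49.5 CPM in sh-Jmjd1a cells. No libraries overlapped, and its log2 fold change of 0.58 (SE 0.089, adjusted p = 5.47e-06) was the largest increase of any member. Npc2, the soluble carrier that hands cholesterol out of lysosomes, fell from 934 ± 42.5 to 745 ± 36.8 CPM (SD, n = 3), while Npc1, its membrane partner, had a log2 fold change of 0.06 and was not called. Soat1, which esterifies cholesterol for storage, and Aacs, which turns acetoacetate into acetoacetyl-CoA for lipid synthesis, each fell by 0.22 on the log2 scale.

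**Figure D1:**
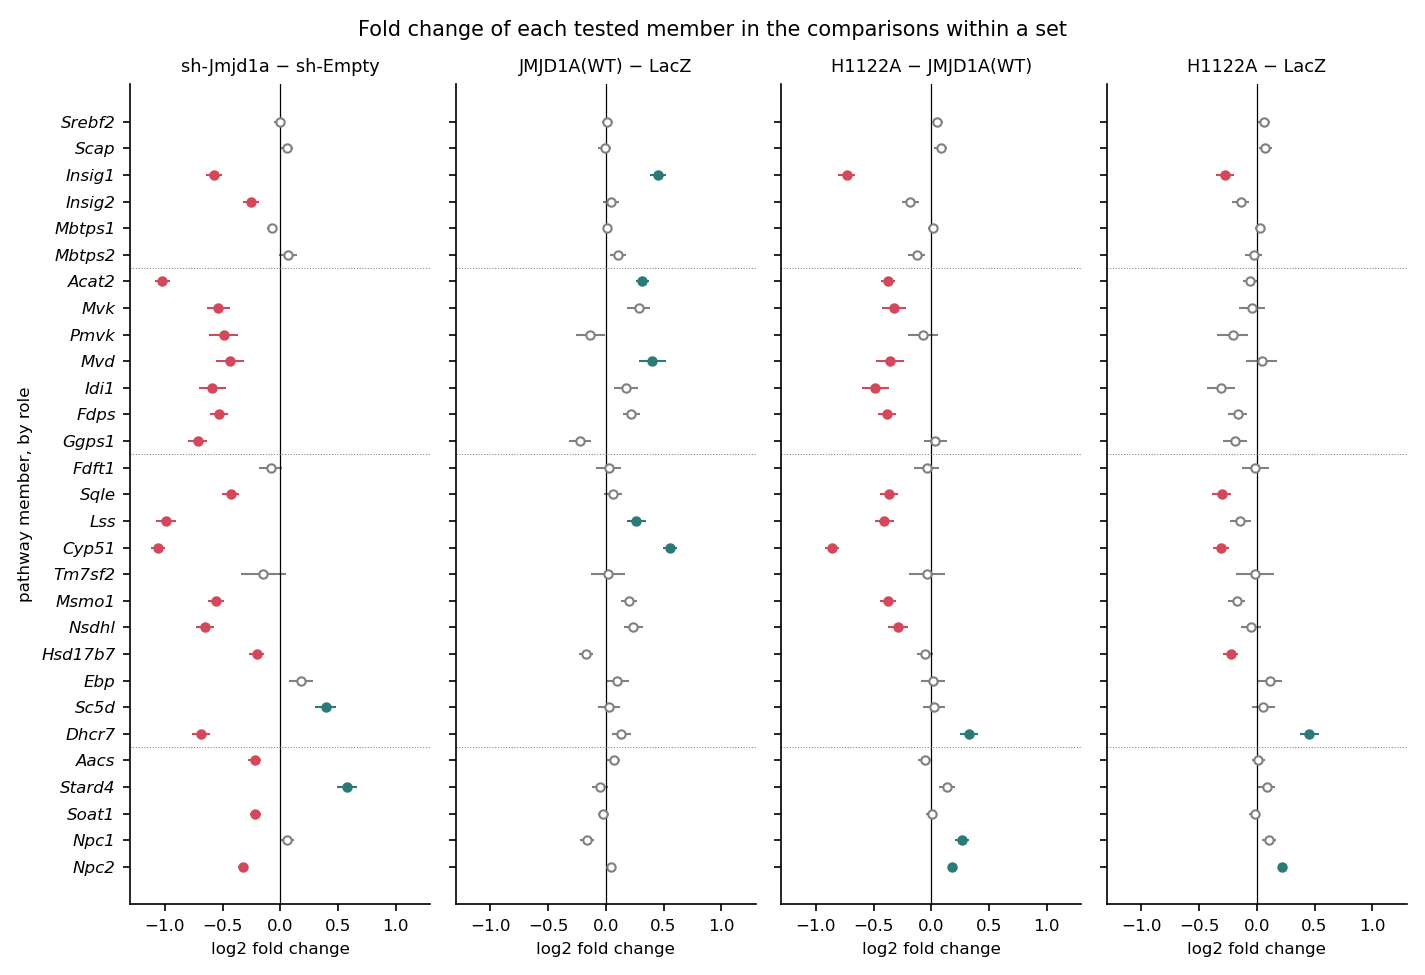
Log2 fold change (x axis) of each tested member (y axis, grouped by role) in the comparisons within a set. Points are edgeR estimates with bars of 1 SE, red for called lower, green for called higher and open gray for not called. The 7 tested mevalonate and isoprenoid members all lie left of 0 in the knockdown panel, and the range there is from -1.06 for Cyp51 to 0.58 for Stard4.

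The rescue with JMJD1A(WT) was compared with LacZ to ask which members responded when JMJD1A was given back to JMJD1A-KD cells. A smaller part of the pathway passed the test. Of the 29 tested members, 5 were higher with JMJD1A(WT), beside 4.98% of all genes tested, and 0 were lower, beside 4.52% of all genes tested. The 5 were Cyp51, Insig1, Mvd, Acat2 and Lss. The median log2 fold change of the 29 members was 0.06, against -0.00014 over all genes tested, and the synthesis enzymes summed to 533 to 553 CPM with LacZ and to 605 to 640 CPM with JMJD1A(WT).

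Cyp51 had the largest increase, from 67.8, 65.5 and 64.5 CPM with LacZ to 96.4, 104 and 91.8 CPM with JMJD1A(WT), a log2 fold change of 0.55 (SE 0.060, adjusted p = 1.72e-09). Insig1 rose from 38.6, 40.3 and 37.8 CPM to 53.5, 55.8 and 51.4 CPM, a log2 fold change of 0.45 (SE 0.069, adjusted p = 3.2e-06). Acat2 had 66.5, 63.7 and 69.5 CPM with LacZ and 79.4, 89.3 and 80.9 CPM with JMJD1A(WT), a log2 fold change of 0.32 (SE 0.058, adjusted p = 8.11e-05). For these 3 genes each JMJD1A(WT) library lay above each LacZ library. Mvd had 10.5, 10.5 and 10.2 CPM against 13.6, 14.1 and 13.6 CPM, and Lss had 26.5, 26.6 and 23.7 CPM against 29.9, 30.5 and 31.4 CPM. Those groups did not overlap either, but the calls were closer to the threshold, with log2 fold changes of 0.40 for Mvd (SE 0.12, edgeR adjusted p = 0.021) and 0.26 for Lss (SE 0.082, edgeR adjusted p = 0.0319). The call of Mvd was lost without LacZ replicate 2 or 3 or JMJD1A(WT) replicate 3, and that of Lss without LacZ replicate 3 or JMJD1A(WT) replicate 1 or 3, with adjusted p-values from 0.0537 to 0.0792 and from 0.0566 to 0.200 in edgeR.

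Several enzymes that fell in JMJD1A-KD cells lay just outside the threshold in the rescue. Nsdhl, Fdps, Msmo1 and Mvk had log2 fold changes of 0.24, 0.22, 0.20 and 0.28 with JMJD1A(WT) over LacZ, with edgeR adjusted p-values of 0.0547, 0.056, 0.058 and 0.063. Without LacZ replicate 3, Nsdhl and Fdps were called (edgeR adjusted p = 0.046 and 0.0262). Msmo1 was called without JMJD1A(WT) replicate 1 (edgeR adjusted p = 0.0465), and Nsdhl was also called without JMJD1A(WT) replicate 3 (edgeR adjusted p = 0.0496). Sqle, Dhcr7 and Idi1, also lower in JMJD1A-KD cells, had values of 0.06, 0.13 and 0.17 (edgeR adjusted p = 0.728, 0.383 and 0.394). The values of Ggps1, Pmvk, Hsd17b7 and Soat1 were -0.22, -0.14, -0.17 and -0.02, on the other side of 0, and none of them was called. Npc1, not called in the knockdown, had -0.16 (edgeR adjusted p = 0.0944). It was called lower without JMJD1A(WT) replicate 3 (-0.22, edgeR adjusted p = 0.0498). Srebf2 had 134, 119.6 and 113 CPM with LacZ and 124, 124 and 123 CPM with JMJD1A(WT), a log2 fold change of 0.01. Its groups overlapped, as did those of Scap, at 96.6, 87.0 and 98.3 CPM against 95.9, 93.6 and 91.3 CPM, and of Insig2, at 41.5, 48.7 and 46.5 CPM against 49.8, 45.2 and 46.001 CPM.

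The knockdown and the rescue share no library, so their fold changes can be set side by side. Of the 19 members that were lower in sh-Jmjd1a cells, 15 had a positive log2 fold change with JMJD1A(WT) over LacZ, and the median over the 19 was 0.17. Of all 2910 genes that were lower in sh-Jmjd1a cells and tested in both sets, 59.7% had a positive value, with a median of 0.03. Across the 29 members the Pearson correlation of the fold changes was -0.56 and the Spearman correlation was -0.58, against -0.21 and -0.17 across all 12202 genes. These correlations are descriptions across genes, which share libraries and are not independent replicates.

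**Figure D2:**
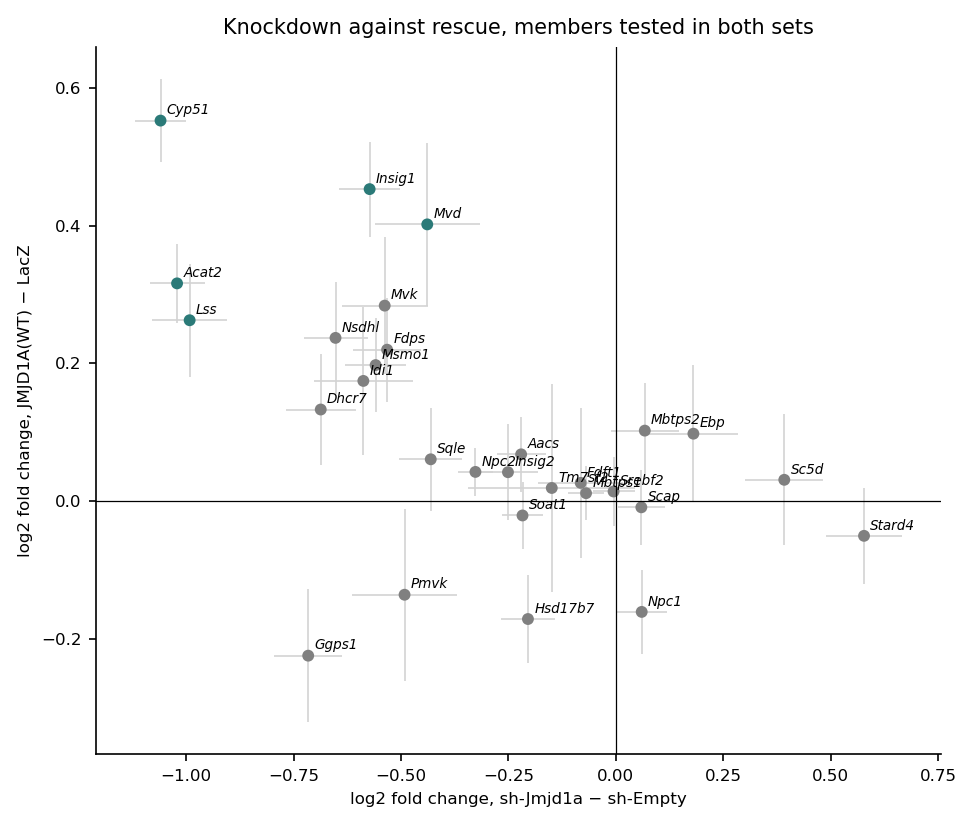
Log2 fold change in the knockdown (x axis, sh-Jmjd1a over sh-Empty) against that in the rescue (y axis, JMJD1A(WT) over LacZ) for the 29 tested members, with bars of 1 SE. Green points are Cyp51, Insig1, Mvd, Acat2 and Lss, which were called in both and again with JMJD1A(H1122A). Ggps1, Pmvk, Hsd17b7 and Soat1 lie below 0 on both axes.

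JMJD1A(H1122A) was compared with JMJD1A(WT) to ask whether the site that holds the iron matters for the rescue. With the mutant, 11 of 29 members were lower than with JMJD1A(WT), beside 11.7% of all genes tested, and 3 were higher, beside 12.1% of all genes tested. The median log2 fold change was -0.06 over the members and -0.0012 over all genes tested. The lower members were Insig1, 5 of 7 mevalonate and isoprenoid members and 5 of 11 squalene and sterol members, and the higher ones were Dhcr7, Npc1 and Npc2. Summed synthesis enzymes had 493 to 510 CPM with JMJD1A(H1122A), below each of the JMJD1A(WT) libraries.

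Cyp51 showed the largest decrease here as well, with 46.9, 56.0 and 57.0 CPM under JMJD1A(H1122A), a log2 fold change of -0.86 from JMJD1A(WT) (SE 0.064, adjusted p = 5.8e-15). Insig1 had 30.04, 31.1 and 35.3 CPM, a log2 fold change of -0.73 (SE 0.073, adjusted p = 5.95e-11). Acat2, at 65.5, 62.1 and 64.5 CPM, and Lss, at 22.2, 22.8 and 24.7 CPM, fell by 0.37 and 0.41 on the log2 scale. For these 4 genes no JMJD1A(H1122A) library reached the level of a JMJD1A(WT) library. Mvd had 10.7, 11.5 and 9.76 CPM, a log2 fold change of -0.36 (SE 0.12, edgeR adjusted p = 0.0255), and its call was lost without JMJD1A(H1122A) replicate 1 or 3 or JMJD1A(WT) replicate 2 or 3, with adjusted p-values from 0.0536 to 0.12. The other decreases were in Idi1 (-0.48), Fdps (-0.39), Msmo1 (-0.37), Sqle (-0.37), Mvk (-0.33) and Nsdhl (-0.29). Of these, Mvk lost its call without JMJD1A(H1122A) replicate 2 or 3 or JMJD1A(WT) replicate 1 (edgeR adjusted p-values from 0.0601 to 0.101), and Nsdhl lost its call without JMJD1A(H1122A) replicate 3 or JMJD1A(WT) replicate 2 (edgeR adjusted p-values of 0.109 and 0.0569).

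Dhcr7 went the other way. It had 34.4, 32.2 and 31.0 CPM with JMJD1A(WT) and 38.7, 41.5 and 41.0 CPM with JMJD1A(H1122A), groups that did not overlap, with a log2 fold change of 0.32 (SE 0.078, adjusted p = 0.00152). The lysosomal carriers also rose, Npc2 from 755 ± 15.6 to 852 ± 24.4 CPM (SD, n = 3) and Npc1 with a log2 fold change of 0.27 (SE 0.061, adjusted p = 0.00078). Srebf2, at 129, 128 and 127 CPM, Scap, at 100.4, 92.1 and 104 CPM, and Insig2, at 38.8, 43.3 and 41.7 CPM with JMJD1A(H1122A), were not called against JMJD1A(WT).

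**Figure D3:**
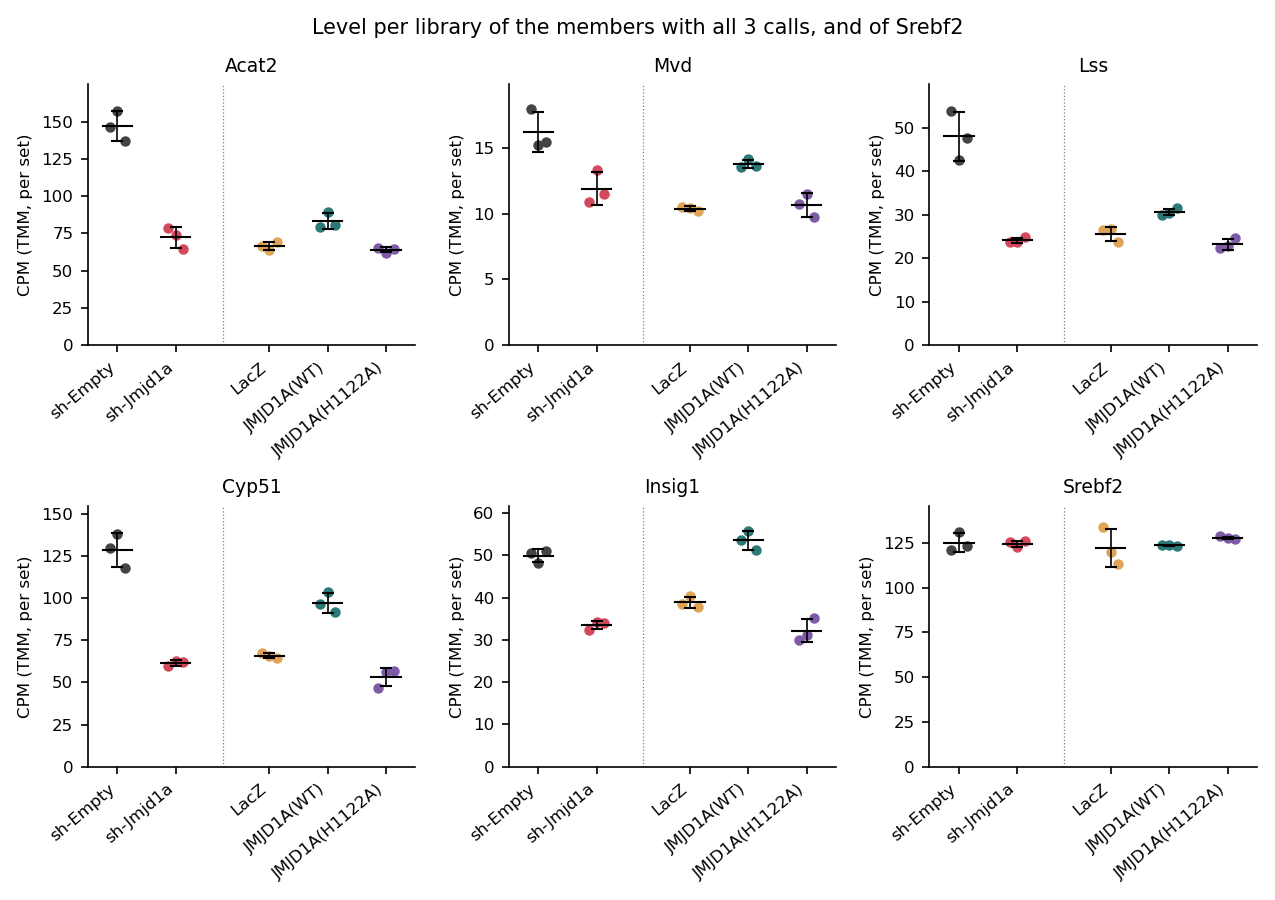
Level per library (y axis, CPM within a set) of Acat2, Mvd, Lss, Cyp51, Insig1 and Srebf2 in the 5 groups, with the mean and SD as bars (n = 3) and a dotted line between the knockdown and rescue sets. The first 5 genes are lower in sh-Jmjd1a cells than sh-Empty ones and, within the rescue set, highest with JMJD1A(WT), while the Srebf2 libraries lie between 113 and 134 CPM in every group.

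JMJD1A(H1122A) was set against LacZ to see whether the mutant acted on its own. In this comparison 4 of 29 members were lower, beside 4.46% of all genes tested, and 2 were higher, beside 4.78% of all genes tested. The members' median log2 fold change was -0.03, near the all-gene median of 0.00052. The LacZ and JMJD1A(H1122A) libraries are those of the preceding comparisons within the rescue set, in the same fit, so the values are not independent of them. Cyp51 fell by 0.31 on the log2 scale (SE 0.068, edgeR adjusted p = 0.00161), and Sqle (-0.31), Insig1 (-0.28) and Hsd17b7 (-0.23) were the other lower members. The calls of Cyp51, Sqle and Insig1 were lost without JMJD1A(H1122A) replicate 1, with edgeR adjusted p-values of 0.0563, 0.113 and 0.127, and 1 lower member was left. Insig1 also lost its call without LacZ replicate 2 or JMJD1A(H1122A) replicate 2, and Hsd17b7 without LacZ replicate 1 or JMJD1A(H1122A) replicate 2 or 3. Dhcr7 had 26.8, 29.2 and 32.5 CPM with LacZ, below each of its JMJD1A(H1122A) libraries, a log2 fold change of 0.46 (SE 0.081, adjusted p = 9.35e-05). Npc2 rose by a log2 fold change of 0.22 (SE 0.035, adjusted p = 1.36e-05).

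**Figure D4:**
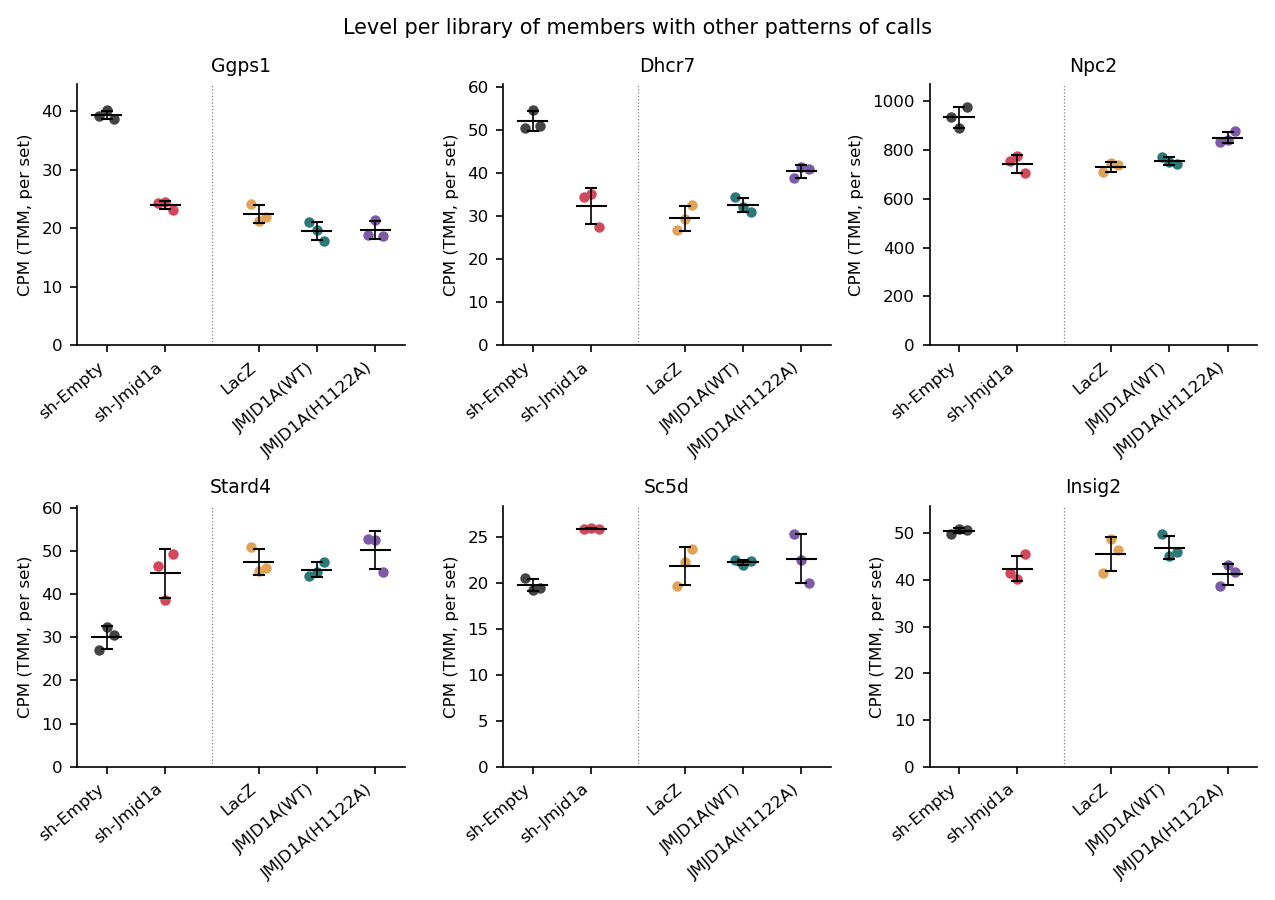
Level per library (y axis, CPM within a set) of Ggps1, Dhcr7, Npc2, Stard4, Sc5d and Insig2 in the 5 groups, with the mean and SD as bars (n = 3) and a dotted line between the sets. Dhcr7 and Npc2 are lower in sh-Jmjd1a cells than sh-Empty ones, and within the rescue set they are highest with JMJD1A(H1122A), while Ggps1 stays between 17.9 and 24.2 CPM in the whole rescue set.

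Members were sorted by their calls in the 3 comparisons by which the study picks genes that depend on JMJD1A and its iron site, namely lower in sh-Jmjd1a cells, higher with JMJD1A(WT) than LacZ and lower with JMJD1A(H1122A) than JMJD1A(WT). Acat2, Cyp51, Insig1, Lss and Mvd had all 3 calls, 5 of 29 members beside 2.43% of all genes tested in both sets. The opposite 3 calls were found in 0 members, beside 2.07% of all genes tested, and no member was higher in sh-Jmjd1a cells and called again in either of the other comparisons. JMJD1A(WT) libraries enter 2 of the 3 comparisons. Acat2, Cyp51 and Insig1 are also named in a gene list of the study, which is not independent evidence of their direction. The study made that list by overlapping genes drawn from these libraries with genes picked by H3K9me2, a histone methylation mark, near their starts. A member missing from it may therefore differ in either part. A further 6 members, Mvk, Idi1, Fdps, Sqle, Msmo1 and Nsdhl, were lower in sh-Jmjd1a cells and lower with JMJD1A(H1122A) without a call between JMJD1A(WT) and LacZ. Dhcr7 and Npc2 were lower in sh-Jmjd1a cells and higher with JMJD1A(H1122A). Another 6, namely Insig2, Pmvk, Ggps1, Hsd17b7, Aacs and Soat1, were called in the knockdown but in neither of the others of these 3 comparisons. The shares of all genes with these other patterns were not counted. The numbers of members in them are therefore not read as a result about the pathway. Of all genes tested, 23.9% were lower in sh-Jmjd1a cells, against 4.98% higher with JMJD1A(WT) over LacZ. Without JMJD1A(WT) replicate 3, the library with the highest total, 4 members had all 3 calls, and these were Acat2, Cyp51, Insig1 and Nsdhl.

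Promoters of the 5 members with all 3 calls are shown because these members share all 3 calls and because SREBP2 sites in such genes often lie near boxes for NF-Y and Sp1. On mm9, Acat2 lies on chromosome 17 from 13135756 to 13153613 (minus strand) and Cyp51 on chromosome 5 from 4081145 to 4104746 (minus strand). Insig1 lies on chromosome 5 from 28397952 to 28405201 (plus strand), Lss on chromosome 10 from 75994333 to 76019883 (plus strand) and Mvd on chromosome 8 from 124957496 to 124967322 (minus strand). The sequences are from RefSeq on GRCm38.p6, another build, and hold the 250 bases before the annotated start, read 5′ to 3′ on the strand of the gene. Capitals mark CCAAT (NF-Y) and GGGCGG (Sp1) on either strand. They would also mark TCACNCCAC, a single spelling of the sterol regulatory element, which has no match in these 5. Other spellings were not searched, so the lack of a match does not show that these promoters have no such element. The windows are chr17:12960726-12960975 (minus) for Acat2, chr5:4104698-4104947 (minus) for Cyp51, chr5:28071162-28071411 (plus) for Insig1, chr10:76531355-76531604 (plus) for Lss and chr8:122443423-122443672 (minus) for Mvd.
Acat2: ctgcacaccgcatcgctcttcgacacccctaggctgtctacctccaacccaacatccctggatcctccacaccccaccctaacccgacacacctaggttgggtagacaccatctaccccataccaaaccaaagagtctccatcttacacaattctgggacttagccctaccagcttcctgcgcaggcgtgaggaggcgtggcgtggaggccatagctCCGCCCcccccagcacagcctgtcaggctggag
Cyp51: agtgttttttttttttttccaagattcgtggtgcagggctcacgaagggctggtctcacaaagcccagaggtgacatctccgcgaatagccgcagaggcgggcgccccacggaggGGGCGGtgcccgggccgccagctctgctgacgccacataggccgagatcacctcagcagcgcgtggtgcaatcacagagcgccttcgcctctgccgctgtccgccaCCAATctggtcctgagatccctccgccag
Insig1: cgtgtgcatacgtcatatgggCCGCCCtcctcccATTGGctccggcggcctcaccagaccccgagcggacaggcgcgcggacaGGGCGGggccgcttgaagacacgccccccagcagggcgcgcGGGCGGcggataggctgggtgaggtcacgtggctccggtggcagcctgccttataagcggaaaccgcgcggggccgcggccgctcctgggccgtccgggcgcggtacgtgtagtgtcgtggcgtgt
Lss: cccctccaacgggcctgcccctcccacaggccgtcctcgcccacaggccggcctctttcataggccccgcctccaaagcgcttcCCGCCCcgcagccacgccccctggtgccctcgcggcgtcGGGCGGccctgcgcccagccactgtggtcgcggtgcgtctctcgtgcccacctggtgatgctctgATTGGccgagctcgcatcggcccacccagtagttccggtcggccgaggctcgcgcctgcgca
Mvd: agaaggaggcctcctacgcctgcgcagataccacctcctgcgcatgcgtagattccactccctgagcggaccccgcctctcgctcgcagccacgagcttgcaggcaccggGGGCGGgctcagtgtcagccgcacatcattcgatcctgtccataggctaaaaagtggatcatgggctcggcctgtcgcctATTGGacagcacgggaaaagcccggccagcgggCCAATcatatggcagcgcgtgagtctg

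An NF-Y box was found in Cyp51, Insig1, Lss and Mvd of these, and an Sp1 box in all 5. Promoters of 25 of the 30 members were in the table, 31 promoters in all because some genes have several starts. Over 300 bases, from 250 before to 50 after the start, CCAAT was in 20 of the 31 (64.5%), against 37.4% of 32851 mouse promoters and 38.5% of the 12040 promoters of genes tested in the knockdown set. GGGCGG was in 24 of the 31 (77.4%), against 35.7% of all promoters and 63.3% of those of tested genes. TCACNCCAC was in 1 of the 31 (3.23%), that of Hmgcs1, against 1.24% of all promoters. These shares are descriptions of letters in a window, and matches of different motifs did not share bases in the members' promoters. The promoter of Mvk held 5 CCAAT matches and that of Srebf2 held 5 GGGCGG matches, whereas those of Aacs and Mbtps2 held none of the motifs.

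Levels were also compared per length, as RPKM from the TMM-scaled counts and the union of exons. In sh-Empty cells Npc2 had the highest level of the 29 members, 287 ± 13.04 RPKM (SD, n = 3), followed by Acat2 at 57.7 ± 3.96, Fdps at 38.7 ± 2.64 and Mbtps1 at 36.4 ± 0.595 RPKM. Fdps and Mbtps1 did not differ beyond their spread. Tm7sf2 was the lowest at 2.00 ± 0.536 RPKM, below Mbtps2 at 3.90 ± 0.210 and Lss at 4.45 ± 0.530 RPKM. The union of exons was 10787 bases for Lss, against 2866 for Idi1, and may be longer than the transcript expressed. The low rank of Lss depends on that length. In sh-Jmjd1a cells Acat2 had 28.4 ± 2.84 RPKM and lay among Mbtps1 at 34.7 ± 1.01, Fdps at 26.9 ± 2.44 and Soat1 at 26.3 ± 0.942 RPKM. Exons of Scap, Ggps1, Fdft1, Lss and Npc1 overlap exons of a gene on the opposite strand. The strand setting of the counting is not given in the sources used here, so reads of such pairs cannot be told apart with certainty, and Arid4b, which overlaps Ggps1 by 170 bases, and Ctsb, which overlaps Fdft1 by 769 bases, had log2 fold changes of -0.19 and -0.31 in sh-Jmjd1a cells.

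Comparisons across the sets need all 15 libraries in a single fit, and set and group cannot be told apart in them. JMJD1A-KD cells with LacZ and JMJD1A-KD cells without a further construct differed little in the pathway. With LacZ, 0 members were lower, beside 3.36% of all genes tested, and 1 was higher, beside 3.62% of all genes tested. That member was Soat1 (log2 fold change 0.16, SE 0.049, edgeR adjusted p = 0.0339), whose call was lost without sh-Jmjd1a replicate 1 or 3 or LacZ replicate 1 or 2, with adjusted p-values from 0.0963 to 0.117. Insig1 had a log2 fold change of 0.22 (SE 0.075, edgeR adjusted p = 0.0596).

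Rescued cells were also set against sh-Empty cells, which shares its control libraries with the knockdown comparison. With JMJD1A(WT), 14 of 29 members were lower than in sh-Empty cells, beside 22.8% of all genes tested, and 2 were higher, beside 22.9% of all genes tested. Ggps1 was the lowest relative to sh-Empty cells, with a log2 fold change of -1.01 (SE 0.083, adjusted p = 2.78e-14), followed by Acat2 (-0.80), Dhcr7 (-0.66) and Lss (-0.62). Cyp51 was lower by a log2 fold change of -0.38 (SE 0.058, adjusted p = 3.25e-07). Stard4 (0.63) and Ebp (0.28) were higher, and the call of Ebp was lost without sh-Empty replicate 2 or JMJD1A(WT) replicate 2 or 3, which left 1 higher member. Insig1 was not called, with 53.8 ± 2.34 CPM against 49.3 ± 1.46 CPM (SD, n = 3) and a log2 fold change of 0.12 (SE 0.065, edgeR adjusted p = 0.145). Mvd (-0.21), Idi1 (-0.22), Insig2 (-0.09) and Soat1 (-0.07) were not called either.

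Genes that work beside the members were read from hand-written lists. Of all genes tested, 23.9% were lower and 22.3% higher in sh-Jmjd1a cells, and 4.52% were lower and 4.98% higher with JMJD1A(WT) over LacZ. With JMJD1A(H1122A), 11.7% were lower and 12.1% higher than with JMJD1A(WT), and 4.46% were lower and 4.78% higher than with LacZ. The counts of each list, those of cell markers included, are read against these shares. Among 7 electron donors and accessory partners of the enzymes, 5 were lower and 1 was higher in sh-Jmjd1a cells, beside 23.9% and 22.3% of all genes tested. Por, the reductase that feeds electrons to Cyp51 and Sqle, fell from 189 ± 7.05 to 132 ± 5.51 CPM (SD, n = 3), and its log2 fold change was -0.52 (SE 0.048, adjusted p = 4.32e-10). It rose with JMJD1A(WT) over LacZ by 0.17 (edgeR adjusted p = 0.00679), fell with JMJD1A(H1122A) relative to JMJD1A(WT) by a log2 fold change of -0.34 (edgeR adjusted p = 9.72e-08), and was lower than with LacZ by -0.17 (edgeR adjusted p = 0.0155). Over that list, 2 genes were higher with JMJD1A(WT) and 0 lower, and 2 were lower and 1 higher with JMJD1A(H1122A) than with JMJD1A(WT).

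Of 13 genes that use isoprenoids, 6 were lower and 0 higher in sh-Jmjd1a cells, beside 23.9% and 22.3% of all genes tested. Dolk, the kinase that makes dolichyl phosphate for glycosylation, fell from 88.5 ± 2.39 to 40.6 ± 3.70 CPM (SD, n = 3), and its log2 fold change was -1.13 (SE 0.066, adjusted p = 3.13e-14) against -1.06 for Cyp51, the member with the largest decrease. It was the single gene of the list called with JMJD1A(WT) over LacZ (0.44, edgeR adjusted p = 1.17e-05), where 4.98% of all genes tested were higher. It also led the 4 that fell with JMJD1A(H1122A) relative to JMJD1A(WT) (-0.56, edgeR adjusted p = 1.01e-07), where 11.7% of all genes tested were lower. Nus1, a subunit of the enzyme that builds the dolichol chain, was the single gene lower with JMJD1A(H1122A) than with LacZ (-0.30, edgeR adjusted p = 0.000128).

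Of 11 genes for sterol movement and ester breakdown, 4 were lower and 3 higher in sh-Jmjd1a cells, shares not far from the 23.9% and 22.3% of all genes tested. The largest change was in Scarb1, the receptor that takes up cholesteryl esters from HDL, which fell from 47.98 ± 3.09 to 16.5 ± 1.06 CPM (SD, n = 3), and its log2 fold change was -1.55 (SE 0.087, adjusted p = 1.25e-14). In the rescue set 3 genes of the list were higher and 0 lower with JMJD1A(WT) over LacZ, and 2 were lower and 2 higher with JMJD1A(H1122A) over JMJD1A(WT). The leading gene there was Gramd1b, which carries sterol from the plasma membrane to the endoplasmic reticulum, at 21.3 ± 1.06 CPM with LacZ, 31.4 ± 1.81 CPM with JMJD1A(WT) and 18.4 ± 1.29 CPM with JMJD1A(H1122A) (SD, n = 3). Its log2 fold changes were 0.57 with JMJD1A(WT) over LacZ and -0.78 with JMJD1A(H1122A) over JMJD1A(WT). Scarb1 and Gramd1b are in that same list of the study's, and so their direction has no independent evidence there. Lipa, the lysosomal lipase that frees cholesterol from its esters, was the single gene called with JMJD1A(H1122A) over LacZ (0.16, edgeR adjusted p = 0.0374). Among 11 genes for SREBP processing and the degradation of sterol enzymes, 3 were lower and 2 higher in sh-Jmjd1a cells, near the 23.9% and 22.3% of all genes tested. Ube2g2, a ubiquitin-conjugating enzyme, had the largest change (-0.41). In the same list, Rnf145, a ubiquitin ligase, led the 3 that were higher with JMJD1A(H1122A) than with JMJD1A(WT) (0.17).

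Adipocyte markers moved in the direction of the summed synthesis enzymes in each comparison within a set. The lists of preadipocyte and of dividing-cell markers, taken as wholes, did not do so throughout. Taken singly, few enzymes were called with JMJD1A(H1122A) over LacZ. There 0 of 7 mevalonate and isoprenoid members were called, and of 11 squalene and sterol members 3 were lower and 1 higher, beside 4.46% and 4.78% of all genes tested. All 8 adipocyte markers were lower in sh-Jmjd1a than in control cells and higher with JMJD1A(WT) than LacZ. With JMJD1A(H1122A) all 8 were below both LacZ and JMJD1A(WT). Their summed level was 5189 to 5276 CPM in sh-Empty, 2644 to 2786 in sh-Jmjd1a, 3323 to 3405 with LacZ, 3811 to 4158 with JMJD1A(WT) and 2574 to 2679.7 with JMJD1A(H1122A). Retn, an adipokine, had the largest changes of the list in sh-Jmjd1a over sh-Empty (-3.44), JMJD1A(WT) over LacZ (2.47) and JMJD1A(H1122A) over JMJD1A(WT) (-3.64) on the log2 scale. The study drew Retn, Fabp4, Cidec, Pparg and Cebpa from these libraries by the same 3 calls. It also drew Dlk1 of the preadipocyte list in this way. The direction of these genes in those comparisons is therefore not independent evidence. Adipoq, another adipokine, had the largest change in JMJD1A(H1122A) over LacZ (-1.26). The 8 preadipocyte and fibroblast markers summed to 10612 to 10808 CPM in sh-Empty and 18697 to 19747 CPM in sh-Jmjd1a cells, and to 22680.4 to 24164 CPM over the rescue set. In sh-Jmjd1a cells 5 were higher and 2 lower, led by Col1a1 (1.42), beside 22.3% and 23.9% of all genes tested. With JMJD1A(WT) over LacZ, 4 of these 8 were higher and 0 lower, beside 4.98% and 4.52% of all genes tested. They were led by Ly6a (1.24), the same direction as the adipocyte markers. With JMJD1A(H1122A) over JMJD1A(WT), 3 were lower and 3 higher, beside 11.7% and 12.1% of all genes tested. The median log2 fold change of the markers was 0.08, and the largest change was in Ly6a (-1.54). With JMJD1A(H1122A) over LacZ, 1 was lower and 3 were higher, beside 4.46% and 4.78% of all genes tested. The median of the markers was 0.07, and the largest change was in Dlk1 (-0.53). Of 6 markers of dividing cells, 5 were higher in sh-Jmjd1a cells, beside 22.3% of all genes tested, led by Mki67 (0.63). None was called by edgeR with JMJD1A(WT) over LacZ or with JMJD1A(H1122A) over LacZ, nor had an unadjusted p under 0.05 there, and 1, Cdk1 (0.19), was higher with JMJD1A(H1122A) than with JMJD1A(WT).

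Macrophage, endothelial and epithelial markers were near 0, and of the muscle markers Des was detected. Over all groups the 5 macrophage markers summed to at most 4.05 CPM, with Ptprc and Adgre1 at 0 in the rescue set, the 4 endothelial markers to at most 0.848 CPM and the 4 epithelial markers to at most 0.777 CPM. Of the 4 muscle markers Myod1, Myog and Ckm were at 0 in all groups. The muscle sum, which is that of Des, a filament protein, was 14.2 to 16.5 CPM with JMJD1A(WT) and 2.18 to 5.09 CPM over the other groups. Des was higher with JMJD1A(WT) than LacZ (1.85) and lower with JMJD1A(H1122A) than JMJD1A(WT) (-2.42). It was not called in sh-Jmjd1a over sh-Empty cells (-0.28) or with JMJD1A(H1122A) over LacZ (-0.57). These directions are those of the summed synthesis enzymes, and the part of Des in the result was not tested. The part of differentiation state, or of cell division, in the change of the sterol genes was not tested. In such bulk libraries fewer cells of a kind and less RNA per cell cannot be told apart.

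**Figure D5:**
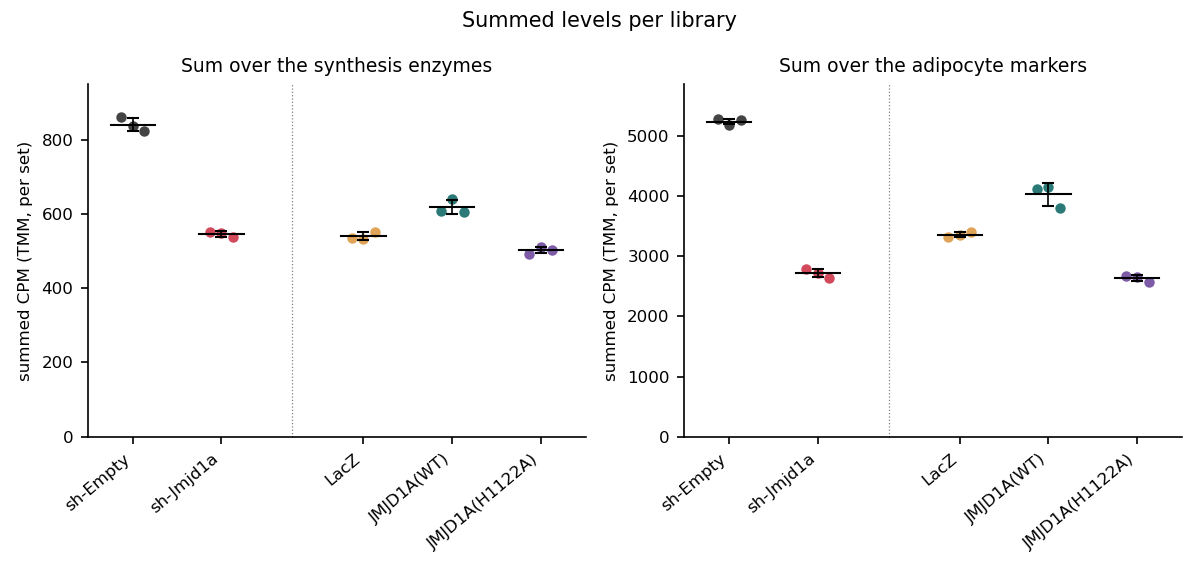
Summed level per library (y axis, CPM within a set) of the 19 synthesis enzymes (left) and the 8 adipocyte markers (right) in the 5 groups, with the mean and SD as bars (n = 3) and a dotted line between the sets. Both sums are lower in sh-Jmjd1a cells than sh-Empty ones and, within the rescue set, highest with JMJD1A(WT) and lowest with JMJD1A(H1122A), at 493 to 510 CPM for the enzymes.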

How the data were processed

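RNA-seq of 3T3-L1 cells on day 2 of differentiation was analyzed in 15 libraries, 3 per group. Per the labels and the study's methods, the authors used fastp for trimming, HISAT2 for alignment to mm9 and featureCounts for counting, and deposited raw read counts per Entrez Gene number, without normalization. The labels and the methods name different NEBNext kits, and the strand setting of the counting is not given in the sources used here. Symbols were found for 24191 of 26301 gene numbers in a RefSeq table, positions came from GENCODE M1 on NCBIM37 (mm9), and promoters came from RefSeq on GRCm38.p6.

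Counts were fitted in R 4.3.3 with edgeR 4.0.16 (limma 3.58.1, statmod 1.5.0) by TMM, filterByExpr with a minimum count of 10 and robust quasi-likelihood tests with p adjusted by Benjamini-Hochberg and called under 0.05. The knockdown set (12272 genes) and the rescue set (12557 genes) were fitted apart, and all 15 libraries (12758 genes) were fitted together for comparisons across sets, without a replicate block. The fits were tested on simulated data. For replicate pairs of a group, chi-square divided by its degrees of freedom was 2.07 to 5.44, above sampling noise. Each library was entered as 1 replicate, although this spread cannot show whether the libraries came from separate cultures. Counts per library ranged from 58 to 191 for Tm7sf2 and from 8668 to 19091 for Npc2, so that the precision is lowest for Tm7sf2.

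The members and all lists were chosen with earlier results of these data known. All 30 members are named. Values in every library are given for members with all 3 calls, for Srebf2, Scap, Insig1 and Insig2, and for the called members with the largest change in each direction of the comparisons within a set. Of the other lists, the called gene with the largest change is named in each comparison within a set. The levels of Kdm3a were read first as a check of the labels. Some promoters were not used here, and the result for 1 gene of the other lists is not reported here. Alternatives were RLE size factors, DESeq2 1.42.0, no filter, at least 10 counts in every library, the legacy quasi-likelihood method, other libraries in the fit, an adjusted p under 0.01, the replicate number as a block, and leaving out each library. The motif shares over promoters of tested genes were added after seeing the data.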

Additional observations from a re-analysis of the deposited data

How the results depend on the processing

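The log2 fold changes of members in the 6 comparisons were recomputed under each alternative. Of these values, 2293 kept their direction and their side of the threshold, 48 lost the call, 11 gained it, 0 reversed after a call, and 84 that were not called changed sign. With the stricter threshold of 0.01, members higher with JMJD1A(WT) than LacZ went from 5 to 3, members lower with JMJD1A(H1122A) than LacZ from 4 to 1, members higher with LacZ than in sh-Jmjd1a cells from 1 to 0, members higher with JMJD1A(WT) than in sh-Empty cells from 2 to 1, and members with all 3 calls from 5 to 3. Fitting only the groups compared also gave 0 members higher with LacZ than in sh-Jmjd1a cells. Acat2, Cyp51 and Insig1 had all 3 calls under each of the alternatives run, and DESeq2 did not call Lss with JMJD1A(WT) over LacZ (adjusted p = 0.0654). At the threshold of 0.01, Mvk and Mvd also lost their calls with JMJD1A(H1122A) over JMJD1A(WT) (edgeR adjusted p = 0.0165 and 0.0255). Sqle lost its call with JMJD1A(WT) over sh-Empty cells (edgeR adjusted p = 0.0208).

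Same-numbered libraries showed little shared deviation (12 correlations, from -0.044 to 0.054). So few libraries cannot exclude a pairing, and the main fits treated the numbers as names of samples. With a replicate block, 8 members were higher with JMJD1A(WT) than LacZ and 8 had all 3 calls, the additional ones being Msmo1, Mvk and Nsdhl. The cause was not tested.

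With each library left out in turn, lower members numbered 18 to 19 and higher members 2 to 2 in sh-Jmjd1a against sh-Empty cells, 0 to 1 and 4 to 5 with JMJD1A(WT) against LacZ, 8 to 10 and 3 to 3 with JMJD1A(H1122A) against JMJD1A(WT), and 1 to 4 and 2 to 2 with JMJD1A(H1122A) against LacZ. They numbered 0 to 0 and 0 to 1 with LacZ against sh-Jmjd1a cells, and 12 to 14 and 1 to 2 with JMJD1A(WT) against sh-Empty cells. All 3 calls were found in 4 to 5 members, and the opposite 3 calls in 0 to 0.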
